A study of Mus musculus with 10 samples.

Results

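Antigen receptor genes are assembled from segments, and 172 of the 26863 genes in the deposited table are such segments: 105 of the immunoglobulin loci and 67 of the T-cell receptor loci. They were taken as every row annotated as an immunoglobulin or T-cell receptor gene that is not a pseudogene. No level of expression was set, but all 26863 genes of the table had a read in at least 1 library. Annotated segments without any read are therefore not in the set. The set holds 120 variable (V), 2 diversity (D), 30 joining (J) and 20 constant (C) segments. The RNA came from the interscapular brown fat of mice, in 5 PnocCre and 5 Wildtype libraries. All 10 samples were collected 1 h after an injection of CNO (clozapine-N-oxide, a drug that acts through engineered receptors), so the Wildtype group also received the drug. The stated purpose was to profile brown fat after activation of neurons of the medial preoptic area that express Pnoc, the gene of the nociceptin precursor. The labels do not name the receptor used, the strain, sex or age, and they do not state outright that each library is a separate animal, so the p-values reflect the variation among samples, which may be technical.

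A B cell joins 1 V, 1 D and 1 J segment of the heavy-chain locus Igh, and V to J at a light-chain locus, Igk (kappa) or Igl (lambda). The spliced transcript then runs from the joined V region into a constant segment, which sets the class of the antibody: Ighm for IgM, Ighd for IgD, Ighg for IgG and Igha for IgA. T cells do the same at Tra and Trb, or at Trd and Trg in gamma delta T cells. Naive B cells make IgM and IgD together, and switched B cells and plasma cells make IgG or IgA. Since no other cell type rearranges these loci, joined segments trace lymphocytes, whether these lie in the fat, in its blood or in an adjoining lymph node. Reads were counted per segment, so a read of a constant segment does not by itself show a joined receptor. In bulk tissue, fewer lymphocytes and less receptor RNA per lymphocyte cannot be told apart.

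The loci lie apart from each other in the genome (build GRCm39, coordinates of the deposited table). Igh takes chr12:113218450-115916625 with 47 of the segments, Igk takes chr6:67586697-70703950 with 50, and Igl takes chr16:18880368-19079609 with 8. Tra takes chr14:52860023-54461663 with 27 segments, and the 2 Trd segments lie inside that span, at chr14:54312362-54386325. Trb takes chr6:40868163-41535386 with 33, and Trg takes chr13:19398273-19536926 with 5.

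The joining segments are short exons of known sequence, and 6 that carried reads are shown because they mark the joint that makes a receptor. Each is given 5′ to 3′ on its coding strand from the GENCODE M21 transcript with the same Ensembl gene ID (build GRCm38), and all 172 segments had such a transcript. Capitals mark the codons of Phe or Trp, Gly, any residue and Gly, which most J segments carry. They were searched on both strands as the codon run TTT, TTC or TGG, then GGN, NNN and GGN.
Ighj3: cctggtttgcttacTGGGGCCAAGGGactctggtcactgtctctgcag
Igkj5: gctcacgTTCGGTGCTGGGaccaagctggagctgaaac
Igkj4: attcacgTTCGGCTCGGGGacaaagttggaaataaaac
Igkj3: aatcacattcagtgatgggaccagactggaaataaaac
Iglj1: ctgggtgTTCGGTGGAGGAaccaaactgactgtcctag
Trbj1-5: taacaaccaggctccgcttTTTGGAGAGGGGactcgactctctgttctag
The pattern was found in 24 of the 30 J segments of the set (80%) and in 69 of all 84 annotated J segments (82.1%), and in 0 of either on the reverse strand. Igkj3, which lacks it, is shown for contrast, and the others without it were Trbj1-6, Trbj1-7, Iglj3p, Traj3 and Traj44.

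For the V segments, the last 60 bases are shown of the leading pair by reads in Igh and in Igk and of the leading segment of Igl, because this end meets the joint. Capitals mark the codons of Tyr, any residue and Cys that precede it, searched on both strands as TAT or TAC, then NNN, then TGT or TGC.
Ighv5-9-1: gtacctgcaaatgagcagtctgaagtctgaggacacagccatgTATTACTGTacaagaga
Ighv1-78: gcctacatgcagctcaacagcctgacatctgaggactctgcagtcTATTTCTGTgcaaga
Igkv17-127: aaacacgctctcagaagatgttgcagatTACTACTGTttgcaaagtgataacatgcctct
Igkv1-135: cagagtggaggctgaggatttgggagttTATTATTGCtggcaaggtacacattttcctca
Iglv1: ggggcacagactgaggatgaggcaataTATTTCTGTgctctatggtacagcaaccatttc
This pattern was found in 118 of the 120 V ends of the set (98.3%) and in 356 of all 362 annotated V ends (98.3%), against 2 (1.67%) and 3 (0.829%) on the reverse strand.

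The libraries held 21304238 to 29171787 reads each, and 1 read was worth 0.823 to 1.16 normalised counts (read counts that the authors divided by a size factor per library). PnocCre replicate 2 stood apart before any comparison of the groups. Its 172 segments held 20384 reads, where those of the other 9 libraries held 213 to 876. No pair of libraries within a group was alike within counting noise. Markers of brown adipocytes summed to 107857 to 125865 normalised counts in the PnocCre libraries and to 137011 to 180557 in Wildtype. Markers of skeletal muscle summed to 4054 to 123203 in the PnocCre libraries (median 29995), with PnocCre replicate 2 at 14234. In Wildtype they summed to 28.8 to 15353 (median 195).

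The summed normalised count of all 172 segments was 758, 18507, 770.0, 460.0 and 321 in PnocCre replicates 1 to 5. In Wildtype replicates 1 to 5 it was 414, 277, 387, 248 and 268. PnocCre replicate 2 lay 24.0-fold above the next library, PnocCre replicate 3. Without it, PnocCre replicates 1, 3 and 4 lay above every Wildtype library and PnocCre replicate 5 lay within the Wildtype range. PnocCre replicate 2 was the highest library for 146 of the 172 segments (84.9%), and for 18.6% of the 15301 genes whose mean reached 10 normalised counts. It exceeded the highest other library more than 5-fold for 116 segments (67.4%) and for 1.31% of those genes. For 84 segments (48.8%) it held all the reads, as it did for 1.42% of all 26863 genes. These 84 segments are in the set through this library alone. Conversely, 12 segments had no read in it, each with 2 to 6 reads in all.

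The remaining libraries held few segments. A read in any Wildtype library was seen for 53 of the 172 segments, and in any PnocCre library other than replicate 2 for 68. Only 5 segments were read in every library, all of them constant: Ighm, Ighd, Igha, Igkc and Trac. A mean of 10 normalised counts, the minimum for the test, was reached by 17 segments (12 C and 5 V). Without PnocCre replicate 2 those 5 constant segments were the ones left, and 122 segments had at most 10 reads over all libraries. A segment that met the minimum through PnocCre replicate 2 alone was bound to look high in PnocCre, so the counts below are given with and without this library.

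**Figure D1:**
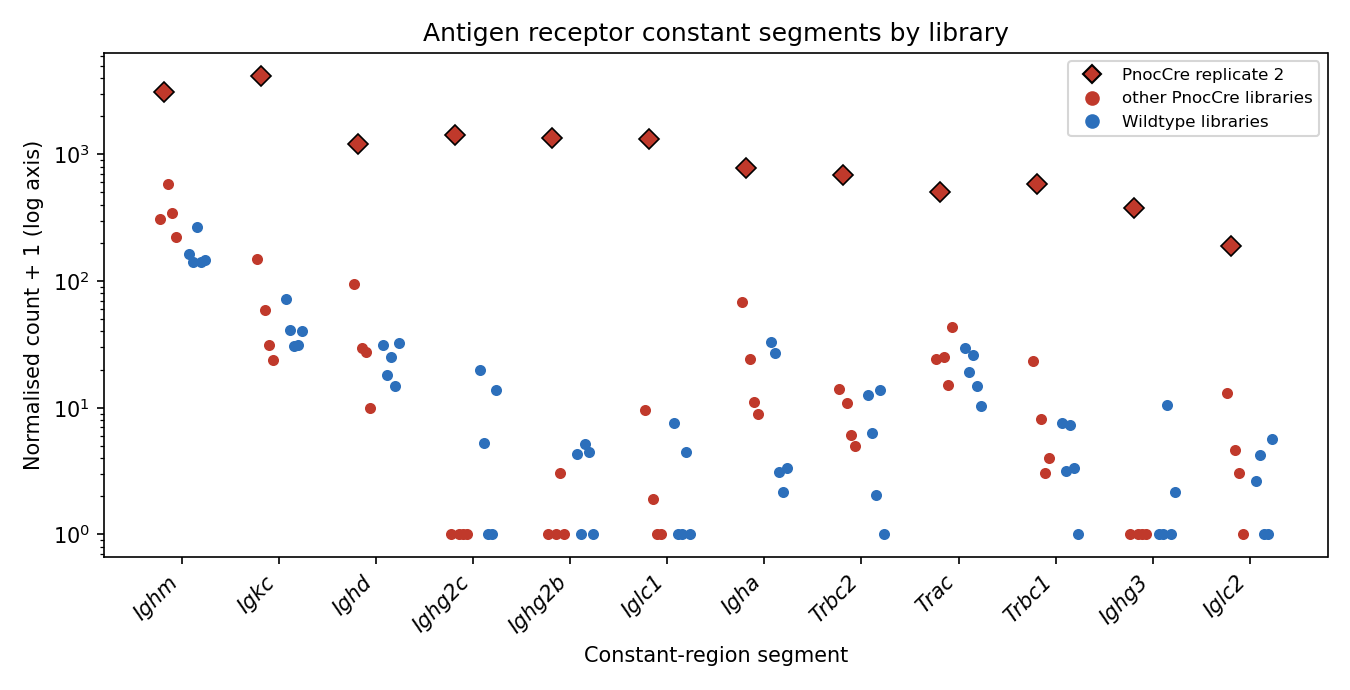
Normalised count + 1 (log axis) of 12 constant segments in each library, with PnocCre replicate 2 as diamonds, the other PnocCre libraries as red circles and the Wildtype libraries as blue circles. The diamond is the highest point of every segment, from 187 for Iglc2 to 4156 for Igkc, and the other libraries reach 579 at most, for Ighm.

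Ighm (chr12:113382178-113386350, minus strand), the constant region of IgM, was the most abundant segment outside PnocCre replicate 2. It stood at 309, 3119.6, 579, 343 and 223 normalised counts in PnocCre replicates 1 to 5, and at 163, 139.9, 267, 139.8 and 146 in Wildtype. Apart from replicate 2, PnocCre replicates 1, 3 and 4 lay above all Wildtype libraries, while PnocCre replicate 5 lay below Wildtype replicate 3, so the groups overlapped. With limma on log2(value + 1) the difference was 1.68 (SE 0.59, adjusted p 0.203, all 15301 genes, 2-sided). Without PnocCre replicate 2 the PnocCre mean was 364 ± 152 (SD, n = 4) and the Wildtype mean 171 ± 54.3 (SD, n = 5). The limma difference was then 1.04 (SE 0.27, unadjusted p 0.00272, adjusted p 0.230), and 12.4% of the 15080 genes tested had an unadjusted p under 0.05.

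DESeq2 on the reads called Ighm higher in PnocCre, and edgeR did not. The DESeq2 difference was 2.42 (SE 0.73, adjusted p 0.0364) with all libraries and 1.08 (SE 0.29, adjusted p 0.0184) without PnocCre replicate 2. In these fits DESeq2 called 3.44% and 1.75% of all genes with an adjusted p, and only 2 and 7 of the 172 segments had one. The edgeR differences were 2.46 (adjusted p 0.188) and 1.10 (adjusted p 0.212), and edgeR called 0 genes in either. The authors' deposited table gives Ighm a log2 fold change of 2.42 and an adjusted p of 0.0364, and no other segment has an adjusted p under 0.05 there. Of the 17 segments with a mean of at least 10, however, 16 have no p in it. No stretch of 50 bases in the Ighm transcript occurs in another annotated transcript, and no other gene of the table overlaps it.

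Across all segments, limma called 0 of the 17 tested, where it called 0% of all genes. By value 16 of the 17 were higher in PnocCre, with a median difference of 1.59, beside -0.01 over all genes. At an unadjusted p under 0.05, 1 segment passed, Ighm, where 17% of all genes did. Without PnocCre replicate 2, limma called 0 of the 5 segments tested, again beside 0% of all genes, and their median difference was 0.43. In 0 of the 17 segments did the groups fail to overlap, where 4.4% of all genes had groups apart, and in 0 of the 5 without PnocCre replicate 2, where 4.99% did. edgeR called 0 of 6 segments tested with all libraries, beside 0% of all genes, and 6 of 6 had an unadjusted p under 0.05, beside 17% of all genes. Without PnocCre replicate 2, edgeR called 0 of 6, and 1 of 6 had an unadjusted p under 0.05, beside 12.1% of all genes. The authors' deposited table gives no p to 24 segments (14.0%), beside 0.983% of all genes. In all 24, DESeq2 on the reads also gave none, and the largest Cook's distance, its measure of how much 1 library moves a fit, belonged to PnocCre replicate 2.

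**Figure D2:**
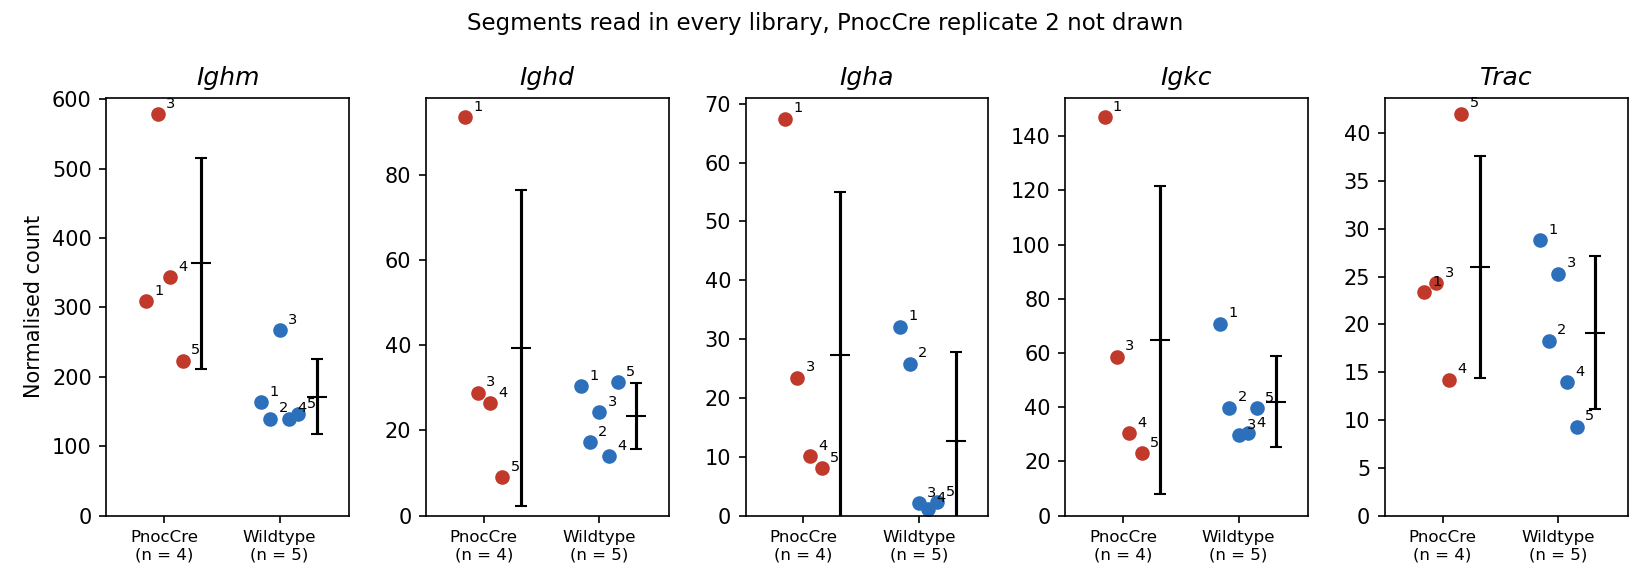
Normalised counts of the 5 segments read in every library, in 4 PnocCre libraries and 5 Wildtype libraries, with numbered replicates and the mean ± SD as black bars (cut at 0). PnocCre replicate 2 is not drawn; Ighm has 3 of 4 PnocCre points above every Wildtype point, and the other 4 segments overlap more widely.

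Ighd, the IgD constant region of naive B cells, stood at 93.5, 1217, 28.9, 26.4 and 9.01 in PnocCre and at 30.5, 17.2, 24.3, 14.0 and 31.4 in Wildtype. Outside PnocCre replicate 2, only PnocCre replicate 1 lay above the Wildtype range and PnocCre replicate 5 lay below it. The limma difference was 1.41 (adjusted p 0.479), and 0.34 (adjusted p 0.836) without PnocCre replicate 2. Igha, the constant region of the mucosal antibody IgA, stood at 67.5, 784, 23.4, 10.2 and 8.01 in PnocCre. In Wildtype it stood at 32.1, 25.8, 2.11, 1.16 and 2.32, so that 3 Wildtype libraries lay below every PnocCre library and the other 2 lay among them. Its limma difference was 2.54 (SE 1.21, adjusted p 0.306), and 1.48 (adjusted p 0.557) without PnocCre replicate 2.

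The IgG segments were close to absent outside PnocCre replicate 2. Ighg2c stood at 1428 normalised counts in it and at 0 in the other 4 PnocCre libraries, and at 18.9, 4.30, 0, 0 and 12.8 in Wildtype. Its limma difference was -0.01 (SE 1.92, adjusted p 0.999). Ighg2b stood at 1353 in PnocCre replicate 2 and at 2.03 in PnocCre replicate 4, and at 3.29, 0, 4.22, 3.49 and 0 in Wildtype. Ighg3 stood at 379.5 in PnocCre replicate 2, at 0 in the other PnocCre libraries, and in Wildtype at 9.49 in replicate 3 and 1.16 in replicate 5. All reads of Ighg1, 37.2 normalised counts, came from PnocCre replicate 2. Summed over these 4 IgG segments, PnocCre replicate 2 held 3198 normalised counts. The other PnocCre libraries held 0 to 2.03, and the Wildtype libraries held 3.49 to 22.2, each above the 4 PnocCre libraries. This order was not tested and comes from 2 reads in the 4 PnocCre libraries and from 3 to 27 in each Wildtype library.

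Class shares were compared per length, as normalised counts per kilobase of the deposited gene length. In PnocCre replicate 2, Ighm made 38.2% of the heavy-chain constant level, IgG 40.3%, Ighd 14.8% and Igha 6.77%. In the other 9 libraries Ighm made 66.5% to 93.9%, IgG 0% to 11.9%, Ighd 3.76% to 20.6% and Igha 0.493% to 10.6%. PnocCre replicate 2 was thus below all others in the share of Ighm and above all in that of IgG, and within their range for Ighd and Igha. The PnocCre libraries 3, 4 and 5 had the highest Ighm shares, 92.8%, 90.8% and 93.9%, next to 89.1% in Wildtype replicate 4.

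**Figure D3:**
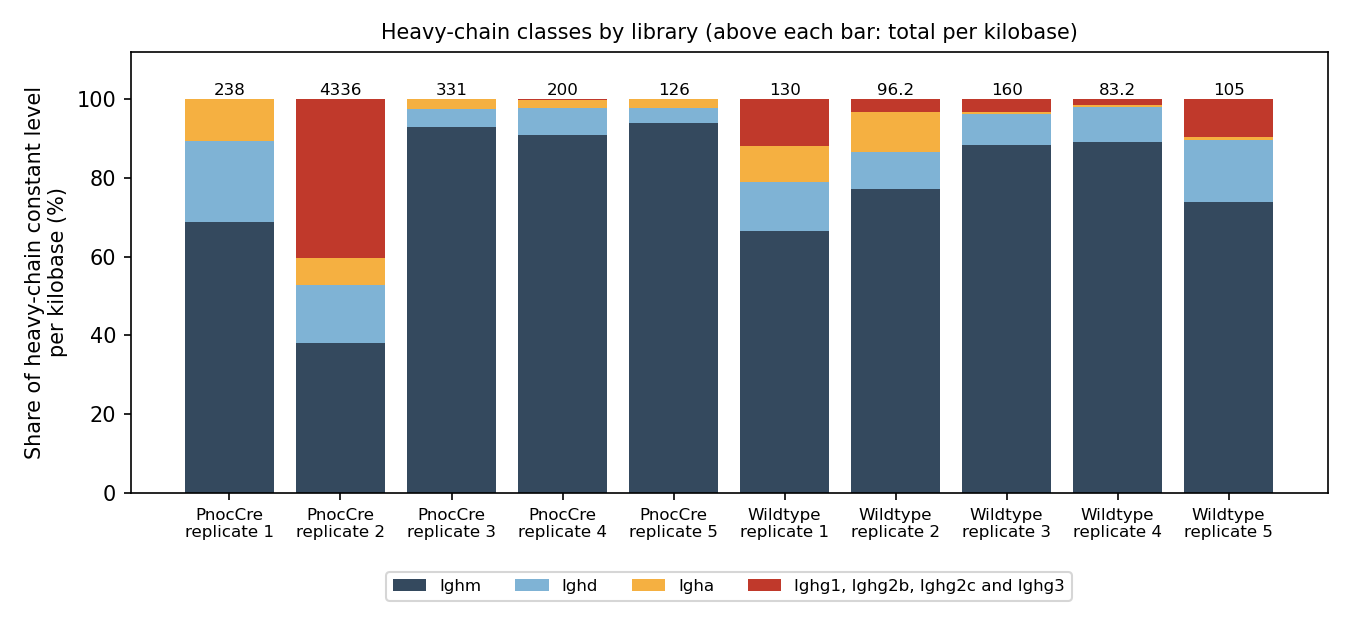
Share (%) of the heavy-chain constant level per kilobase taken by Ighm, Ighd, Igha and the 4 IgG segments in each library, with the total per kilobase above each bar. The IgG part is 40.3% in PnocCre replicate 2 and at most 11.9% elsewhere.

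Among the light chains, Igkc (chr6:70703419-70703950, plus strand), the sole kappa constant region, stood at 147, 4156, 58.6, 30.5 and 23.0 in PnocCre. In Wildtype it stood at 70.8, 39.8, 29.5, 30.3 and 39.5. Outside PnocCre replicate 2 the groups overlapped, with PnocCre replicate 1 highest and PnocCre replicate 5 lowest of all 9. The limma difference was 1.59 (adjusted p 0.504), and 0.32 (SE 0.48, adjusted p 0.829) without PnocCre replicate 2. The lncRNA Gm30211 overlaps Igkc on the same strand, at a mean of 4.31 normalised counts.

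Lambda segments were rarer. Iglc1 stood at 1318 in PnocCre replicate 2, at 8.66 in PnocCre replicate 1 and at 0 to 6.59 in the other 8 libraries. Iglc2 and Iglc3 reached 187 and 57.2 in PnocCre replicate 2 and at most 12.1 and 6.06 in any other library, and Iglc4 stood at 1.82 or less in all 10. Per kilobase, lambda made 30.0% of the light-chain constant level in PnocCre replicate 2, beside 0% to 18.4% elsewhere. The lncRNA 2010309G21Rik lies antisense to Iglc1, Iglc3 and Iglv1. The strand setting of the counting was not given in the sources used here, and without it reads of these partners cannot be told apart.

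The balance of heavy to light chain also set libraries apart. Ighm per kilobase was 0.212 of Igkc per kilobase in PnocCre replicate 2, the lowest of the 10 libraries. It was 0.592 in PnocCre replicate 1 and 2.79, 3.18 and 2.73 in PnocCre replicates 3, 4 and 5. In Wildtype it was 0.649, 0.991, 2.55, 1.30 and 1.05. Ighm thus exceeded Igkc in 6 of the 9 libraries with few segment reads, by the most in PnocCre replicates 3 to 5 and Wildtype replicate 3.

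T-cell receptor segments repeated the split. Trac, the alpha-chain constant region, stood at 23.4, 503, 24.3, 14.2 and 42.1 in PnocCre and at 28.8, 18.3, 25.3, 14.0 and 9.30 in Wildtype. Outside PnocCre replicate 2 only PnocCre replicate 5 lay above the Wildtype range. The limma difference was 1.29 (adjusted p 0.406), and 0.43 (SE 0.39, adjusted p 0.702) without PnocCre replicate 2.

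The beta-chain constant regions were lower outside that library. Trbc1 stood at 22.5, 586, 7.21, 2.03 and 3.0 in PnocCre and at 6.59, 2.15, 6.33, 2.33 and 0 in Wildtype. Trbc2 stood at 13.0, 690.0, 9.92, 5.08 and 4.01 in PnocCre and at 11.5, 5.38, 1.05, 12.8 and 0 in Wildtype. Both had PnocCre replicates 1 and 2 on top, and Wildtype replicate 5 had no read of either. These paralogs share 41.1% and 44.0% of their 50-base stretches, so reads may be split between them. Their limma differences were 2.24 (adjusted p 0.372) and 2.09 (adjusted p 0.400). With PnocCre replicate 2 left out neither reached the minimum for the test.

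Gamma delta segments were nearly absent everywhere. Trdc, the delta-chain constant region, reached 31.8 in PnocCre replicate 2 and 3.29 at most elsewhere. The 4 Trg constant segments, of the gamma chain, summed to 19.1 in PnocCre replicate 2, beside 0 to 7.41 elsewhere. Trgc2 was the only constant segment whose highest library was not PnocCre replicate 2: Wildtype replicate 1 held 7.41 and PnocCre replicate 2 held 2.72.

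The V segments were used unevenly in the immunoglobulin loci of PnocCre replicate 2 and more evenly in its T-cell receptor loci. Of the 362 annotated V segments the set holds 120, those with a read in some library, and 66 of these were read in this library alone. The counts of V segments with a read in it were thus bound to be high. In this library 32 of the 36 Igh V segments of the set had a read, 498 reads in all. Ighv5-9-1 held 220 of these (44.2%, 95% Wilson interval 39.9% to 48.6%) and Ighv1-78 held 130, so that the pair made 70.3%. Of the 44 Igk V segments of the set 40 had a read, 1093 reads in all. Igkv17-127 held 413 of them (37.8%, 35.0% to 40.7%) and Igkv1-135 held 388, and together they made 73.3%. Iglv1 held 862 of the 875 Igl V reads (98.5%).

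In the T-cell receptor loci of the same library 37 of the 38 V segments of the set had a read, 224 reads in all. The top segment, Trbv12-2, held 22 (9.82%, 6.58% to 14.4%), and the top pair made 17.4%. Within Trb alone Trbv12-2 held 22 of 152 reads (14.5%, 9.76% to 20.9%), and within Tra alone Trav6d-5 held 8 of 70 (11.4%, 5.91% to 21.0%). The intervals of the top shares in Igh and Igk lay above those of Trb and Tra. Intervals cover counting error only, because reads amplified by PCR are not independent molecules.

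**Figure D4:**
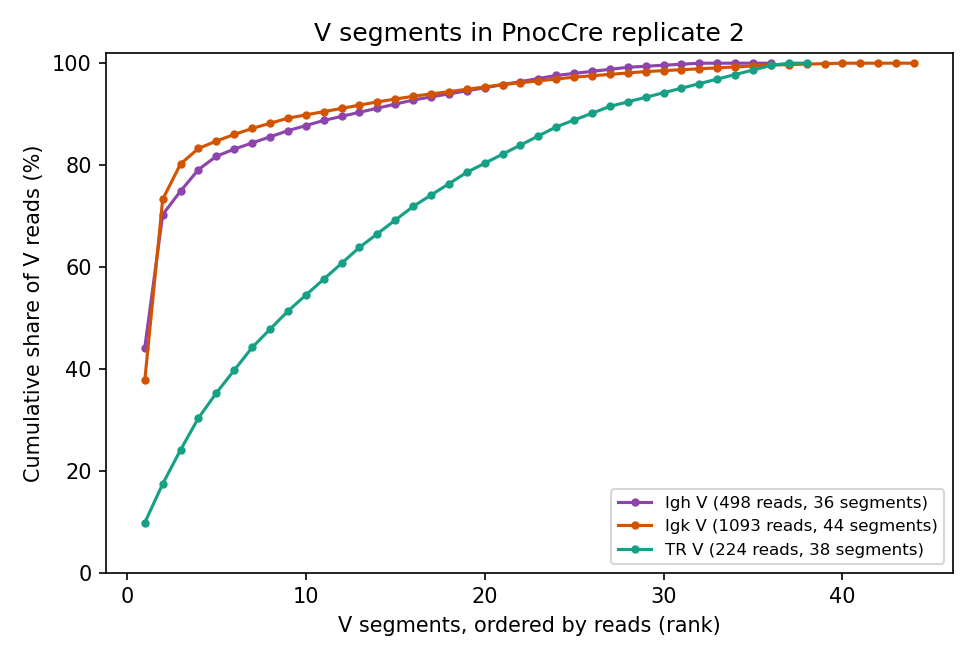
Cumulative share (%) of V-segment reads in PnocCre replicate 2 against the rank of the segment by reads, for Igh (498 reads), Igk (1093 reads) and the T-cell receptor loci (224 reads). The Igh and Igk curves pass 70% at the second segment, and the T-cell receptor curve stands at 17.4% there.

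The V segments that led in PnocCre replicate 2 were almost unread in the other libraries. Ighv5-9-1, Ighv1-78 and Igkv1-135, whose ends are printed above, had 0 reads in the other 9 libraries together, and Igkv17-127 had 1. Iglv1 had 11, and stood at 783 normalised counts in PnocCre replicate 2 and at 5.19 in PnocCre replicate 1. Each of the other libraries held 0 to 8 Igh V reads, 2 to 30 Igk V reads and 1 to 7 T-cell receptor V reads, too few to rank segments. The Igh constant segments held 136 to 700 reads in each of these libraries, and 9161 in PnocCre replicate 2, beside its 498 Igh V reads. Whether the constant reads of the other libraries come from joined receptors was not tested. V segments resemble each other: Igkv17-127 shares 50.6% of its 50-base stretches with other transcripts, Igkv1-135 36.5%, Iglv1 22.2%, Ighv5-9-1 17.3% and Ighv1-78 14.7%. The 19 Tra V segments had 70 reads in PnocCre replicate 2 and 0 in the other 9 libraries.

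The J segments, at 38 to 100 bases, collected few reads. Iglj1, shown above, had 43 reads in PnocCre replicate 2 and 0 elsewhere, Trbj1-5 had 21 against 4, and Igkj5 had 18 against 1. Ighj3 had 11 against 4, and Igkj4 had 12 against 7. Igkj3, which lacks the marked pattern, had 2 against 5. Among the 30 J segments 15 were read in PnocCre replicate 2 alone, and 3 (Trbj1-1, Traj37 and Traj44) had no read in it. The most read J of the kappa and lambda loci in that library, Igkj5 and Iglj1, both carry the pattern, as do 24 of the 30 J segments (80%). Whether the pattern goes with the number of reads was not tested.

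Markers of lymphocytes moved with the segments. All 12 B-cell markers were highest in PnocCre replicate 2, beside 18.6% of all genes tested. Their sum was 4895 there and 71.1 to 357 in the other libraries. All 12 T-cell markers were highest there too, with a sum of 5029.9 beside 60.4 to 149.7 elsewhere. Tcf7, a transcription factor of naive T cells, led them at 1284, beside 18.2 at most in any other library.

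Plasma-cell markers were mixed, with 4 of 8 highest in PnocCre replicate 2. Jchain, which links IgM and IgA into polymers, reached 695 there and 5.81 to 28.6 elsewhere. Sdc1, Prdm1, Xbp1 and Irf4 were not highest in it, and other cells also express Xbp1 and Irf4. Sdc1 stood at 92.6 there beside 55.8 to 120 elsewhere, and Prdm1 at 39.0 beside 1.16 to 41.1. Xbp1 stood at 1072 beside 1018 to 1801. Irf4, at 172.5, was lower there than in any other library, beside 201 to 408. NK-cell markers were highest there for 3 of 5, with sums of 97.1 and, in the other libraries, 7.53 to 38.9. Of the germinal-centre and recombination list 3 of 5 measured genes were highest there. Dntt, the enzyme that adds bases at V(D)J joints, stood at 4.54 in it, and Rag1 and Rag2 have no row in the table used here.

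Lymph node stroma was marked as well, with 5 of the 6 measured genes highest in PnocCre replicate 2, beside 18.6% of all genes tested. Among these 5 is Cr2, at 179, which is also on the B-cell list. The sum of the 6 genes was 1210.3 there and 46.1 to 129 elsewhere. Ccl21a, a chemokine that draws naive lymphocytes into lymph nodes, stood at 789.9 beside 35.4 to 106 in the other libraries. Ccl19, a chemokine of the same receptor, stood at 106, and Glycam1, a mucin of lymph node high endothelial venules, at 51.8, beside 1.02 and 0.823 at most elsewhere. Madcam1, a vessel addressin, was not highest in it. Erythroid markers summed to 17174 in PnocCre replicate 2, within the 8761 to 27199 of the other libraries, and 0 of 5 were highest there. Macrophage markers were highest there for 3 of 5, and their sum was 976 beside 495 to 842. Of the gamma delta T-cell list 2 of 4 measured genes were highest there, Sox13 and Blk, the latter also a B-cell marker. What part lymph node tissue, lymphocytes in the fat or blood has in the segment values was not tested.

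**Figure D5:**
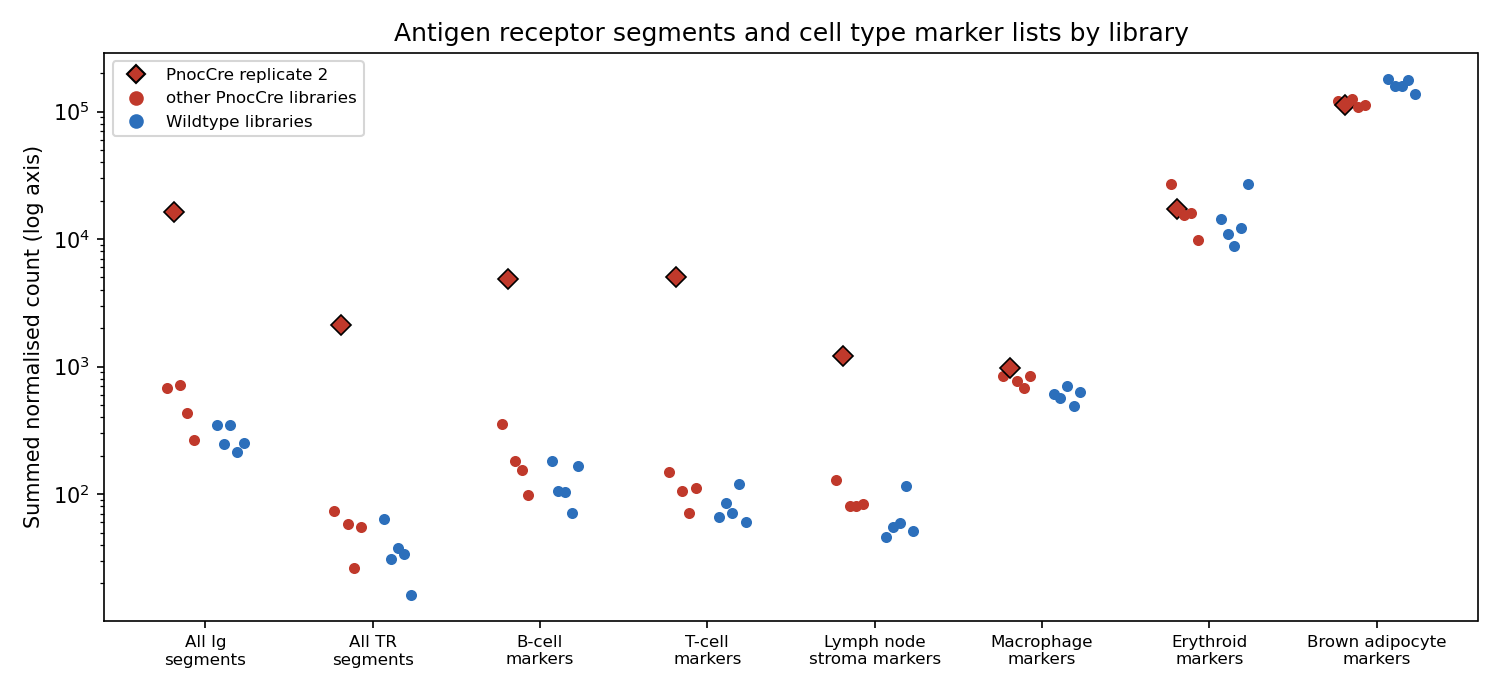
Summed normalised counts (log axis) of all immunoglobulin (Ig) and T-cell receptor (TR) segments and of 6 marker lists in each library, with PnocCre replicate 2 as diamonds. The diamond lies 23.0-fold above the next library for Ig segments and 28.9-fold for TR segments, and within the range of the other libraries for erythroid and brown adipocyte markers.

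The receptor signalling genes followed the segments by value. All 12 genes of the B-cell receptor list and all 12 of the T-cell receptor list were highest in PnocCre replicate 2. limma called 0 of 12 in each, and the median differences were 1.01 and 1.38, beside -0.01 over all genes. Without PnocCre replicate 2 the medians were 0.32 over 10 genes tested and 0.42 over 6. DESeq2 gave an adjusted p to 5 of the 12 B-cell receptor genes and to 3 of the 12 T-cell receptor genes. Beside 3.44% of all genes, it called 1 of these higher in each list and 0 lower: Syk (1.45, adjusted p 0.0352), the kinase next to the B-cell receptor, and Cd247 (2.17, adjusted p 0.0124), the zeta chain of the T-cell receptor complex. With limma Syk differed by 1.07 (adjusted p 0.230) and by 0.64 (adjusted p 0.328) without PnocCre replicate 2, and Cd247 by 1.57 (adjusted p 0.194) and 1.01 (adjusted p 0.270).

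B-cell markers that met the minimum without PnocCre replicate 2 can be set beside Ighm. With limma and the 9 libraries, Cd79a, the signalling partner of membrane IgM, differed by 0.63 (adjusted p 0.331) and Cd79b by 0.19 (adjusted p 0.930). Bank1, an adaptor of B-cell receptor signalling, differed by 1.43 (adjusted p 0.282) and Cd22, an inhibitory coreceptor, by 0.61 (adjusted p 0.701). Ighm differed by 1.04, and whether it differs from these genes was not tested.

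Antibody receptors and transport genes were the third list, and they were mixed. limma called 0 of the 9 tested, 8 of them higher by value with a median of 0.72, or 0.39 over 8 genes without PnocCre replicate 2. DESeq2 gave an adjusted p to 7 of the 10 and, beside 3.44% of all genes, called 2 higher and 0 lower. These were Fcgr1 (1.14, adjusted p 0.0494) and Fcgr3 (0.75, adjusted p 0.0468), both activating receptors for IgG on macrophages. With limma Fcgr1 differed by 1.06 (adjusted p 0.153) and by 0.90 (adjusted p 0.285) without PnocCre replicate 2, and Fcgr3 by 0.72 (adjusted p 0.175) and 0.65 (adjusted p 0.324). Fcgr1 stood at 35.5, 43.6, 22.5, 21.3 and 22.0 in PnocCre and at 16.5, 12.9, 10.5, 16.3 and 9.30 in Wildtype, so its groups did not overlap, as those of 4.4% of all genes did not. Fcgrt, which carries IgG across cells and recycles it, was the most abundant of the list at 3784 to 7476, and differed by -0.16 (limma, adjusted p 0.639). Fcmr, the receptor of IgM, stood at 264 in PnocCre replicate 2 and at 13.0 or less in the other libraries.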

How the data were processed

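PolyA RNA of 10 samples (5 PnocCre, 5 Wildtype) was sequenced in strand-specific (dUTP) libraries, per the labels' protocols. Tools named in the submitters' processing notes are HISAT2 2.0.5, featureCounts 1.5.0-p3 and DESeq2, with genome build GRCm39. The annotation release, the strand setting and the handling of reads across V, D and J joints were not given in the sources used here. The deposited signal per library is a read count per gene that the authors divided by 1 size factor per library, and all values were whole multiples of 1 read at a tolerance of 0.01 reads. The authors' log2 fold changes and p-values stand in the same deposited table, and gene length is a further deposited column, per the file headers.

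Libraries held 21304238 to 29171787 reads. The main test was limma 3.58.1 (trend, robust) in R 4.3.3 on log2(value + 1) for 15301 genes with a mean of at least 10, without covariates. Adjustment was Benjamini-Hochberg over all genes, 2-sided, at a threshold of 0.05. This scale understates changes of low genes. edgeR 4.0.16 (quasi-likelihood, TMM) and DESeq2 1.42.0 were run on the recovered reads, and each tool was tested on simulated data. Other pseudocounts, filters, TMM rescaling and leaving out each library were tried. The segments and the marker and pathway lists were chosen with earlier results of these data known, so no p was adjusted over a list alone. Genes were named by a rule: all C segments, the 4 with the highest mean in each class of V and in J or D together, the 3 smallest p per direction, and any adjusted p under 0.05. Trav6d-5, other J segments and list genes were chosen after their values were seen. Sequences come from GENCODE M21 (GRCm38) by Ensembl gene ID, and coordinates from the deposited table. Intervals are 95% Wilson intervals. Replicates were numbered in accession order, which pairs no samples.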

Additional observations from a re-analysis of the deposited data

Results flagged for a closer look

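Within its group of 5, PnocCre replicate 2 stood far above the others for most named segments. A flag is a gap to the next library over 0.71 of the group's range, and only groups reaching 3.5 normalised counts were examined. For independent, normally distributed values chance gives about 1 such flag in 20 groups. This rate does not apply here, because the values are counts and all segments share the same libraries. Some constant segments, such as Ighg1, reached 3.5 in the PnocCre group through replicate 2 alone. The V and J segments were named for a high mean over all 10 libraries, which came mostly from PnocCre replicate 2. In both cases a flag was close to fixed in advance. Among heavy-chain constant segments its normalised counts were 3119.6 for Ighm, 1217 for Ighd, 1428 for Ighg2c, 1353 for Ighg2b, 784 for Igha, 379.5 for Ighg3 and 37.2 for Ighg1. Light-chain constant segments stood at 4156 for Igkc, 1318 for Iglc1, 187 for Iglc2 and 57.2 for Iglc3. T-cell receptor constant segments stood at 690.0 for Trbc2, 586 for Trbc1, 503 for Trac, 31.8 for Trdc, 9.99 for Trgc1 and 3.63 for Trgc4.

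Among V segments of the same library the flagged values were 199.7 for Ighv5-9-1, 118 for Ighv1-78, 20.9 for Ighv1-64, 19.1 for Ighv1-26, 375 for Igkv17-127, 352 for Igkv1-135, 69.0 for Igkv5-39 and 30.0 for Igkv4-91. They were also 783 for Iglv1, 11.8 for Iglv2, 19.97 for Trbv12-2, 15.4 for Trbv13-2, 12.7 for Trbv3 and 13.6 for Trbv2. J segments stood at 39.0 for Iglj1, 19.1 for Trbj1-5 and 16.3 for Igkj5.

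In Wildtype, replicate 3 stood apart for Ighm, at 267, and for Ighg3, at 9.49. Wildtype replicate 1 stood apart for Igkc, at 70.8, and for Trgc2, at 7.41. The 7 pseudogenes of segments, left out of every comparison, summed to 17.3 normalised counts in PnocCre replicate 2. They summed to 1.73, 2.71, 0 and 0 in PnocCre replicates 1, 3, 4 and 5, and to 1.16 at most in Wildtype.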

How the results depend on the processing

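limma called 0 genes and 0 segments under both other pseudocounts, both other filters and TMM rescaling, and edgeR called 0 of each. DESeq2 called 575 genes and 1 of the 2 segments that it gave an adjusted p. Without PnocCre replicate 2, an alternative added after seeing the data, it called 292 genes and 1 of 7 such segments. The segment was Ighm each time, at log2 differences of 2.42 and 1.08. With 1 library left out limma called 0 to 1 genes (1 without PnocCre replicate 3) and 0 segments. Leaving out 1 library moved Ighm from 1.04 to 1.99 (limma, adjusted p 0.160 to 0.349). Over all alternatives its adjusted p ran from 0.0184 to 0.353. The Ighg2c difference, -0.01, turned to 0.64 with a pseudocount of 5, and ran from -0.53 to 0.55 with 1 library left out (0.52 without PnocCre replicate 1, 3, 4 or 5, 0.55 without Wildtype replicate 1, 0.07 without Wildtype replicate 2 and 0.42 without Wildtype replicate 5); its limma SE was 1.92 and the cause was not tested. Without PnocCre replicate 2 the 12 other segments tested fell under the minimum mean and gave no limma value. No paired analysis was possible because the labels carry no replicate numbers that are shared between the groups. At these depths 3 reads, the limit that a count of 0 allows, stand for 2.47 to 3.49 normalised counts, so a segment at 0 is not shown to be absent.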
